A study of Mus musculus with 8 samples.

Results

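The oocyte maternal-effect genes described here are 10 mouse genes, Nlrp5, Nlrp14, Nlrp4f, Ooep, Khdc3, Padi6, Zp3, Npm2, Zar1 and Figla, which were chosen by name. A probe set counted for a gene when it named that gene alone. All 10 genes were measured, 9 of them by 1 probe set and Zar1 by 2, so that 11 of the 35556 probe sets and 10 of the 19938 genes that had their own probe set belong to it, and no filter on low values was applied. The question put to the arrays was whether transcripts that normally build up in the growing oocyte changed in embryonic stem cells (ESCs) when Kdm2b, which encodes a CpG island binding protein of a polycomb repressive complex, was knocked down.

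Total RNA was taken from 4 shKdm2b samples (E14 mouse ESCs stably expressing an shRNA against Kdm2b, at passages 27 to 30) and 4 shScr samples (E14 mouse ESCs stably expressing a scrambled control shRNA, at passages 28 to 31), and each sample was hybridised to 1 Affymetrix Mouse Gene ST array. E14 is a feeder-independent ESC line, both groups were kept in ES medium with LIF, and both carried a lentiviral pLKO.1 construct with puromycin selection. Each group rests on 1 shRNA sequence. The samples are described as independent biological replicates collected in parallel, but the sources name no separately derived lines, so that p-values measure the spread between samples of these lines and not between shRNAs or lines. No oocytes and no ovarian tissue were measured.

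Maternal-effect genes are transcribed in the growing oocyte, and their products carry the fertilised egg through the first cleavages, before and while the genome of the embryo is switched on. NLRP5, OOEP, KHDC3 and TLE6 form the core of the subcortical maternal complex, a protein assembly beneath the oocyte membrane in mouse, to which NLRP4F and ZBED3 also bind, and PADI6 is needed for the fibrous cytoplasmic lattices of the oocyte. ZP3 is a glycoprotein of the zona pellucida, FIGLA is the basic helix-loop-helix factor that binds E-boxes in zona genes, NPM2 is the nucleoplasmin of the egg, and ZAR1 binds maternal mRNAs. Several of these genes are also transcribed at some level in mouse ESCs.

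Of the 10 genes, 3 rose in the shKdm2b cells (Nlrp4f, Ooep and Khdc3), none fell, and 7 did not pass the gene rule. Their rises were 1.94-fold, 1.62-fold and 1.57-fold. By this rule, which the study's methods state, a gene changed when most of its own probe sets passed an adjusted p of 0.05 and the most significant of them changed at least 1.5-fold. Over all 19938 genes, 284 were higher and 285 lower by the same rule, a background of 1.42% and 1.43%. At an unadjusted p under 0.05 the counts in the set were again 3 higher and 0 lower, against 16.8% of all genes higher and 13.6% lower at that threshold. The 3 risen genes were also those in which all 4 shKdm2b arrays lay above all 4 shScr arrays, as was the case for 11.6% of all genes. The median log2 fold change of the 10 genes was 0.08, against 0.05 over all genes. The set was not tested as a whole.

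The stretches of DNA upstream of the genes are shown first because KDM2B binds non-methylated CpG dinucleotides and because FIGLA, a member of the set, binds E-boxes. Promoters of 8 of the 10 genes were matched in RefSeq (GRCm38.p6), and Nlrp14 and Npm2 were not. The 250 bases before the outermost listed start are printed 5′ to 3′ on the strand of the gene for the 3 risen members, for Tle6, whose protein joins them in the complex, and for Zp3, the zona gene, with every CANNTG E-box in capitals. The window lies at chr13:65205717-65205966 on the minus strand for Nlrp4f and at chr9:78378589-78378838 on the minus strand for Ooep. It lies at chr9:73102148-73102397 on the plus strand for Khdc3, at chr10:81600901-81601150 on the minus strand for Tle6 and at chr5:135979855-135980104 on the plus strand for Zp3.
Nlrp4f: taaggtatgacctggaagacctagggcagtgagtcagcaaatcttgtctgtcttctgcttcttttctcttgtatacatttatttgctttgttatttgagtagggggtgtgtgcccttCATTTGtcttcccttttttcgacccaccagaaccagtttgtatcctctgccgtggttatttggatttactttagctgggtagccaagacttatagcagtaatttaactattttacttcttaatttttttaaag
Ooep: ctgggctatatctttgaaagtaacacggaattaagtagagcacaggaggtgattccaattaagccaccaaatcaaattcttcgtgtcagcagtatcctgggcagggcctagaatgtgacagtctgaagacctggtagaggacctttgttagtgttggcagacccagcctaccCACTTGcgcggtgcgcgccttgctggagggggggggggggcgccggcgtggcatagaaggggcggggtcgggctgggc
Khdc3: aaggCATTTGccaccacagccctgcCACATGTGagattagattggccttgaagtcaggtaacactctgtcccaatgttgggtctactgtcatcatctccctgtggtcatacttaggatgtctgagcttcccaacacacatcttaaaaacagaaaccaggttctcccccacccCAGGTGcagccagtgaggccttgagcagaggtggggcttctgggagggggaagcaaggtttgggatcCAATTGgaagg
Tle6: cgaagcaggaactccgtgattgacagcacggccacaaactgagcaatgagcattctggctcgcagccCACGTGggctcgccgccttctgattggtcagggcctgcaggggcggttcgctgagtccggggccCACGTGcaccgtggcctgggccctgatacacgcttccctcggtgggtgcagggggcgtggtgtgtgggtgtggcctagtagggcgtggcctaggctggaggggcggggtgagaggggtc
Zp3: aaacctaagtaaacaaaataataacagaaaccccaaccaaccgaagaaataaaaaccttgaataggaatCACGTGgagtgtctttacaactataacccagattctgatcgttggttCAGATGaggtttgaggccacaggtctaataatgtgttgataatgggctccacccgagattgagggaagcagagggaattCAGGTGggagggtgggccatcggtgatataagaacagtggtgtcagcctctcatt

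The 3 risen members had unlike upstream sequences. The Khdc3 window holds 0 CpG dinucleotides, the Nlrp4f window 2 and the Ooep window 11, whereas the median over all 27025 promoters of this length was 6. The ratio of observed CpGs to those that its C and G content would give was 0.217 for Nlrp4f, 0.568 for Ooep and 0 for Khdc3, with a median of 0.379 over all promoters. Tle6 had 17 CpGs and a ratio of 0.628, in a window that is 67.2% G and C, but RefSeq lists 2 start windows for this gene and only the outermost is used. Among members that did not meet the gene rule, the windows held 14 CpGs in Figla, 9 in Zar1, 7 in Nlrp5, 5 in Zp3 and 1 in Padi6. For Nlrp5, too, RefSeq lists 2 start windows, and only the outermost is used. In CpG count the windows of the risen genes lie on both sides of the median, and so do those of the others. The windows end at the start, and neither DNA methylation nor KDM2B binding was measured here.

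The motifs were searched on both strands. The E-box CANNTG was found in 8 of 8 windows of the members and in 66.1% of all promoters. The form CACGTG, which CANNTG also covers, was found in 1 of 8 windows, that of Zp3, and in 6.04% of all promoters. In the Zp3 sequence it stands 181 bases before the start, followed by CAGATG at 134 and CAGGTG at 55 bases before the start. The Tle6 window holds CACGTG at 183 and at 119 bases before the start. The motif TCCCGC, bound by E2F factors, was found in 1 of 8 windows, the outermost of Nlrp5, and in 16.9% of all promoters. These matches are descriptions of sequence, and binding was not measured here.

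The targeted gene itself was lower in every shKdm2b array, at 8.68 to 9.45 in shKdm2b against 10.74 to 11.34 in shScr, with a log2 fold change of -2.05 (SE of the moderated fit 0.18, adjusted p = 0.000891, limma). Array medians lay between 8.47 and 8.53. RMA brings the probe intensities of the arrays to 1 distribution before they are summarised, so that a shift common to most transcripts cannot be measured in these values. Of 10 ESC markers, none met the gene rule (limma) and 6 were higher at an unadjusted p under 0.05 (16.8% of all genes), and their mean log2 signal lay between 13.22 and 13.26 on the shKdm2b arrays and between 12.96 and 13.19 on the shScr arrays. Of 26 listed markers of the 2-cell-like state, a rare ESC state that transcribes genes of the early embryo, 12 were measured. The other 14, among them the Zscan4 genes, Tcstv1 and Dux, had no probe set of their own. Of the 12, 10 were lower by the gene rule, as were 1.43% of all genes. The mean log2 signal of the 12 was 6.89 to 7.01 on shKdm2b arrays and 8.55 to 9.68 on shScr arrays. The part of either difference in the results on maternal-effect genes was not tested. In bulk RNA, fewer cells that express a gene and less RNA per cell cannot be told apart.

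Nlrp4f, whose protein belongs to the NLRP family and associates with the subcortical maternal complex, showed the largest rise of the 10 genes. Its log2 signal was 7.49, 8.10, 8.14 and 8.20 in shKdm2b replicates 1 to 4, and 6.86, 7.16, 6.96 and 7.12 in shScr replicates 1 to 4. The groups did not overlap, although shKdm2b replicate 1 lay well below the other shKdm2b arrays. The means were 7.98 ± 0.33 in shKdm2b and 7.02 ± 0.14 in shScr (SD, n = 4 arrays each), a log2 fold change of 0.96 (SE 0.16, 95% confidence interval 0.60 to 1.31, adjusted p = 0.0109, limma). The exact two-sided permutation test, which treats the arrays as unpaired, gave p = 0.0286, the smallest that 4 arrays against 4 allow. Between arrays of the same number the difference was at least 0.63 on the log2 scale and upward in 4 of 4. The signal stood at percentile 31.8 of all single-gene probe sets in shKdm2b and at percentile 17.3 in shScr, that is, in the dim range, where RMA compresses fold changes. The call held without each of the 8 arrays in turn (adjusted p = 0.0016 to 0.0425, limma) and when only passages 28 to 30 were compared (adjusted p = 0.0211, limma). Because the Nlrp4 genes resemble each other in sequence, a probe set may read more than 1 of them, which was not tested.

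Ooep, which encodes a KH domain protein of the core complex also called FLOPED, was already bright in these ESCs. Its log2 signal was 13.13, 12.91, 12.69 and 12.78 in shKdm2b replicates 1 to 4, and 12.55, 12.30, 11.96 and 11.91 in shScr replicates 1 to 4. No shScr array reached the lowest shKdm2b array, but the gap between the groups was narrow, and replicate 1 was the highest array of both groups. Ooep averaged 12.88 ± 0.19 in shKdm2b and 12.18 ± 0.30 in shScr (SD, n = 4 arrays each). It rose by 0.70 on the log2 scale (SE 0.16, 95% confidence interval 0.34 to 1.05, adjusted p = 0.0316, limma). The exact permutation test, which treats the arrays as unpaired, gave p = 0.0286. The mean signal lay at percentile 96.2 in shKdm2b and at percentile 91.1 in shScr. All 4 differences between arrays of the same number were upward, from 0.58 to 0.87. The call was lost without shKdm2b replicate 1, 2 or 4 or shScr replicate 2, 3 or 4 (adjusted p = 0.0660 to 0.0917, limma). Arrays of the same passage have different replicate numbers. At matched passages the difference was 0.36 at passage 28, 0.38 at passage 29 and 0.82 at passage 30. The fit over these passages gave a log2 fold change of 0.52 (adjusted p = 0.135, limma).

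Khdc3 encodes FILIA, another KH domain protein of the core complex, which in mouse ESCs is also known for a role in genome stability. Its log2 signal was 10.23, 10.64, 10.63 and 10.55 in shKdm2b replicates 1 to 4, and 9.61, 10.15, 9.89 and 9.78 in shScr replicates 1 to 4. The lowest shKdm2b array, replicate 1, lay just above the highest shScr array, replicate 2. Khdc3 averaged 10.51 ± 0.19 in shKdm2b and 9.86 ± 0.23 in shScr (SD, n = 4 arrays each). It rose by 0.65 on the log2 scale (SE 0.13, 95% confidence interval 0.36 to 0.95, adjusted p = 0.0226, limma). The unpaired exact permutation test gave p = 0.0286. Arrays of the same number differed by 0.49 to 0.77, upward in 4 of 4. The call was lost without shKdm2b replicate 2 or 4 or shScr replicate 3 or 4 (adjusted p = 0.0620 to 0.0735, limma), and without shScr replicate 1, where the log2 fold change of 0.57 fell short of 1.5-fold. Matched passages, again across replicate numbers, differed by 1.03 at passage 28, 0.47 at passage 29 and 0.66 at passage 30 (fitted log2 fold change 0.72, adjusted p = 0.0874, limma).

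**Figure D1:**
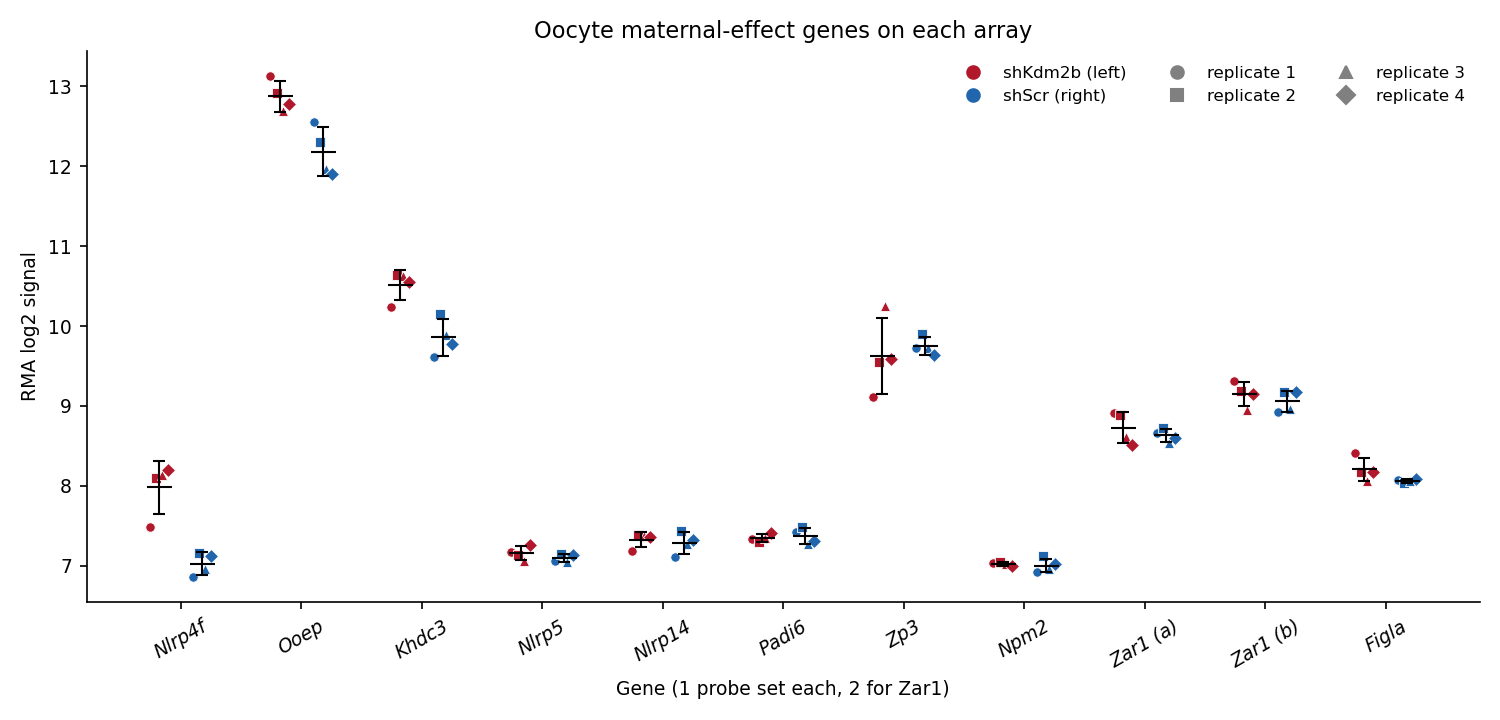
RMA log2 signal (vertical axis) of the 11 probe sets of the 10 maternal-effect genes (horizontal axis) on each array, with shKdm2b arrays in red on the left and shScr arrays in blue on the right of each gene. Marker shapes give the replicate number, and black bars give the mean and SD of 4 arrays. The groups stand apart for Nlrp4f, Ooep and Khdc3 and overlap for the other 7 genes, and the shKdm2b arrays of Zp3 spread over 1.14 log2 units.

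The remaining members tied to the complex or to the lattices fell short of the gene rule. Nlrp5, which encodes MATER, the founding member of the complex, had log2 signals of 7.18, 7.14, 7.06 and 7.26 in shKdm2b replicates 1 to 4, and 7.06, 7.14, 7.05 and 7.13 in shScr replicates 1 to 4. The groups overlapped, and the log2 fold change was 0.06 (95% confidence interval -0.07 to 0.20, adjusted p = 0.533, limma). The probe set was dim, at percentile 18.5 in shKdm2b and 18.2 in shScr, so that low expression and a weak probe set cannot be told apart. Padi6, a member of the peptidylarginine deiminase family, had 7.34, 7.30, 7.34 and 7.42 in shKdm2b replicates 1 to 4, and 7.43, 7.49, 7.27 and 7.31 in shScr replicates 1 to 4. Its log2 fold change was -0.02 (95% confidence interval -0.17 to 0.12, adjusted p = 0.840, limma). Nlrp14, a further NLRP gene of the germ line, had 7.18, 7.39, 7.37 and 7.36 in shKdm2b replicates 1 to 4, and 7.10, 7.43, 7.27 and 7.32 in shScr replicates 1 to 4. Again the groups overlapped, with a log2 fold change of 0.04 (95% confidence interval -0.14 to 0.23, adjusted p = 0.776, limma). For these 3 genes the intervals leave out a rise of 1.5-fold in probe set signal, which is 0.58 on the log2 scale, with the reservation that dim probe sets understate a change in RNA.

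Among all 9 genes listed for the complex and its partners, 4 rose, none fell and 5 did not pass, whereas 1.42% of all genes rose and 1.43% fell. The 4 include the 3 risen members, and the list was chosen with earlier results of these data known. Its median log2 fold change was 0.54, against 0.05 over all genes. The fourth riser was Tle6, which encodes the core subunit related to Groucho corepressors. Its log2 signal was 10.13, 10.00, 9.67 and 9.88 in shKdm2b replicates 1 to 4, and 9.40, 9.08, 8.95 and 9.24 in shScr replicates 1 to 4. Every shKdm2b array lay above every shScr array. Tle6 rose 1.69-fold, or by 0.75 on the log2 scale (SE 0.12, 95% confidence interval 0.47 to 1.04, adjusted p = 0.0110, limma). Zbed3, whose product binds axin as well as the complex, did not overlap between the groups either. It had 11.47, 11.45, 11.59 and 11.75 in shKdm2b replicates 1 to 4, and 10.78, 11.06, 11.15 and 11.10 in shScr replicates 1 to 4. Its log2 fold change of 0.54 (SE 0.10, adjusted p = 0.0182, limma) was 1.45-fold and thus short of the 1.5-fold threshold. Nlrp2, the last gene of the list, had a log2 fold change of 0.02 (adjusted p = 0.908, limma). When only passages 28 to 30 were compared, Tle6 was at adjusted p = 0.0667 (limma). Of the 4 core subunits, Ooep, Khdc3 and Tle6 thus rose, and Nlrp5 had a log2 fold change of 0.06. The difference between Nlrp5 and the others was not tested.

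**Figure D2:**
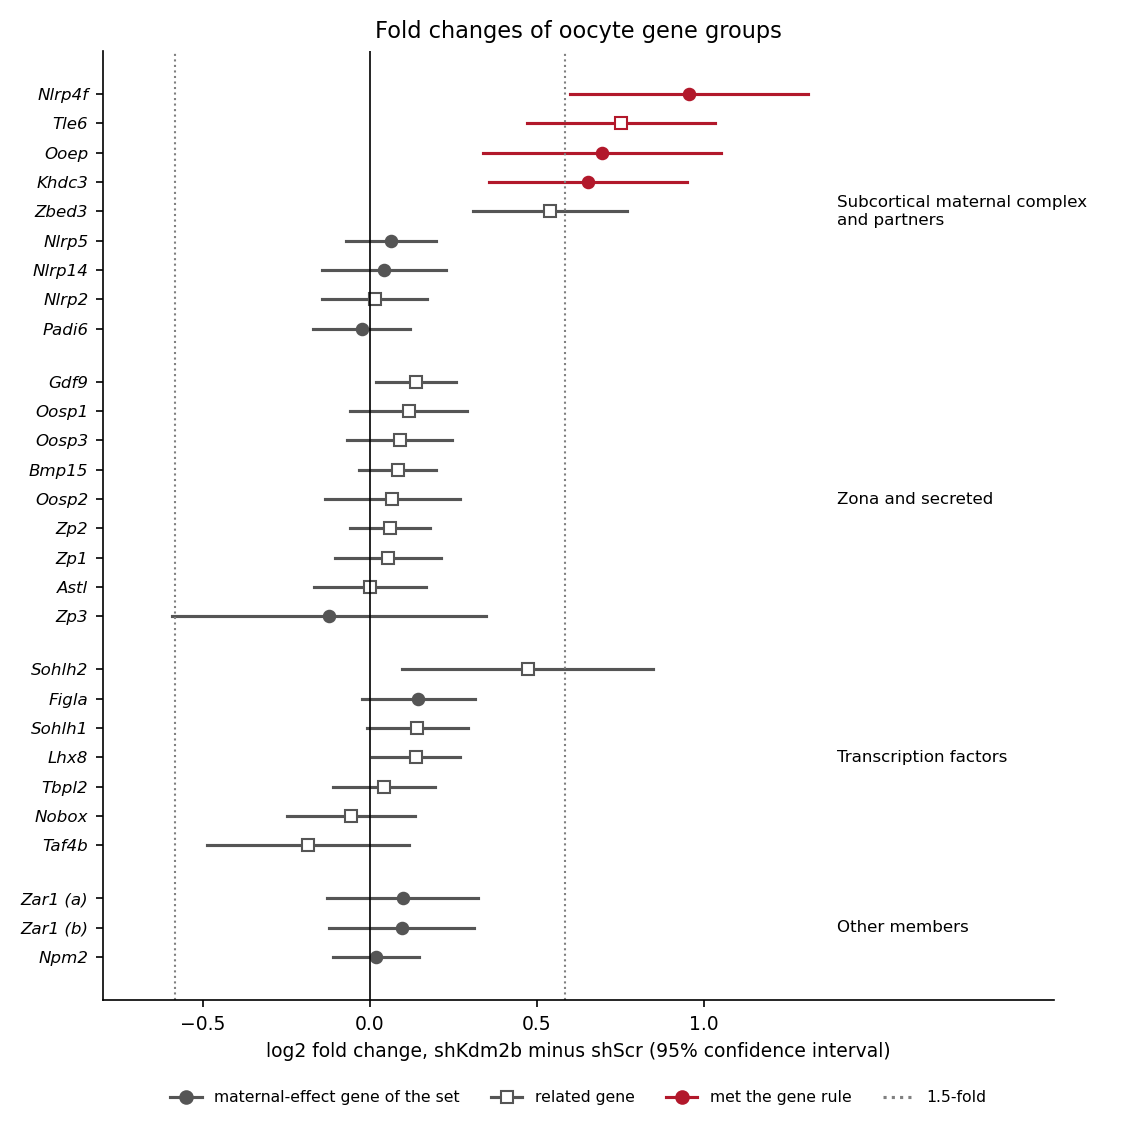
Log2 fold change, shKdm2b minus shScr (horizontal axis), with its 95% confidence interval, for the probe sets of 4 groups of oocyte genes. Filled circles are the maternal-effect genes of the set, open squares related genes, red marks genes that met the gene rule, and dotted lines mark 1.5-fold. Among the groups drawn, red intervals stand only in the top one, for Nlrp4f, Tle6, Ooep and Khdc3. The list of other oocyte and maternal-effect genes, in which Tcl1 met the gene rule, is not drawn.

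Relatives of the members were read from the same fit. Of 12 measured NLRP genes of the oocyte, Nlrp4f alone met the gene rule, beside 1.42% of all genes that rose, and the median log2 fold change was 0.05. At an unadjusted p under 0.05 (limma), 4 of the 12 were higher, Nlrp4f included, and 0 lower. Over all genes these shares were 16.8% and 13.6%. Nlrp4e, the nearest measured protein-coding gene on 1 side of Nlrp5, had a log2 fold change of 0.27 (SE 0.07, adjusted p = 0.0644, limma). Of 4 measured genes of the KH domain family to which OOEP and KHDC3 belong, these were the 2 that rose, beside 1.42% of all genes. Dppa5a, an ESC-expressed gene, is the nearest measured protein-coding gene on 1 side of Ooep. It had 14.50, 14.43, 14.30 and 14.37 in shKdm2b replicates 1 to 4, and 14.37, 14.18, 14.08 and 14.01 in shScr replicates 1 to 4. Its groups overlapped, and its log2 fold change was 0.24 (SE 0.09, adjusted p = 0.124, limma). None of 5 peptidylarginine deiminase genes met the rule (limma), and 2 were higher at an unadjusted p under 0.05 (16.8% of all genes), with Padi2 at 0.59 (SE 0.18, adjusted p = 0.0775, limma) and Padi3 at 0.30 (adjusted p = 0.120, limma).

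Zp3, the gene of a glycoprotein of the egg coat, varied more among the shKdm2b arrays than between the groups. Its log2 signal was 9.11, 9.55, 10.25 and 9.58 in shKdm2b replicates 1 to 4, and 9.72, 9.90, 9.73 and 9.63 in shScr replicates 1 to 4. The shKdm2b arrays held both the lowest and the highest value and spanned 1.14 log2 units, against 0.27 for the shScr arrays. The log2 fold change was -0.12 (SE 0.21, 95% confidence interval -0.59 to 0.35, adjusted p = 0.742, limma), so that a change of 1.5-fold downward lies just within the interval. Of 9 genes for zona and oocyte secreted proteins, none met the gene rule (limma), and 1 of 9 was higher at an unadjusted p under 0.05, which is no more than the 16.8% of all genes. The smallest p was that of Gdf9, an oocyte growth factor of the TGF-beta family, with a log2 fold change of 0.14 (SE 0.05, adjusted p = 0.146, limma), and its partner Bmp15 had 0.08 (adjusted p = 0.337, limma). The median of the list was 0.07.

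Figla, the transcription factor gene of the set, had log2 signals of 8.41, 8.18, 8.06 and 8.18 in shKdm2b replicates 1 to 4, and 8.07, 8.03, 8.06 and 8.08 in shScr replicates 1 to 4. Replicate 1 stood above the other shKdm2b arrays, while the shScr arrays lay within 0.05 log2 units of each other. Its log2 fold change was 0.15 (95% confidence interval -0.02 to 0.32, adjusted p = 0.259, limma), upward in 4 of 4 same-numbered pairs. Of 7 oocyte transcription factor genes, none met the gene rule (limma), and 2 were higher at an unadjusted p under 0.05 (16.8% of all genes). Sohlh2, a germ cell helix-loop-helix gene, had a log2 fold change of 0.47 (SE 0.16, adjusted p = 0.116, limma), and the homeobox gene Lhx8 had 0.14 (adjusted p = 0.174, limma).

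Zar1 was read by 2 probe sets, which gave like answers. In the first, log2 signals were 8.91, 8.89, 8.62 and 8.51 in shKdm2b replicates 1 to 4, and 8.66, 8.73, 8.54 and 8.60 in shScr replicates 1 to 4. In the second they were 9.31, 9.19, 8.95 and 9.15 in shKdm2b replicates 1 to 4, and 8.92, 9.17, 8.96 and 9.18 in shScr replicates 1 to 4. The groups overlapped in both, with log2 fold changes of 0.10 (95% confidence interval -0.13 to 0.32, adjusted p = 0.567, limma) and 0.09 (95% confidence interval -0.12 to 0.31, adjusted p = 0.561, limma). Zar1l, the related zygote arrest gene, had 0.02 (adjusted p = 0.890, limma). Npm2, the gene of the egg nucleoplasmin, had 7.03, 7.04, 7.02 and 6.99 in shKdm2b replicates 1 to 4, and 6.92, 7.12, 6.96 and 7.02 in shScr replicates 1 to 4. Its log2 fold change was 0.02 (95% confidence interval -0.11 to 0.15, adjusted p = 0.865, limma). The Npm2 probe set was dim, at percentile 16.8 in shKdm2b and 17.0 in shScr, and dim probe sets understate a change in RNA. The ubiquitous family member Npm1 had -0.14 (adjusted p = 0.287, limma).

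**Figure D3:**
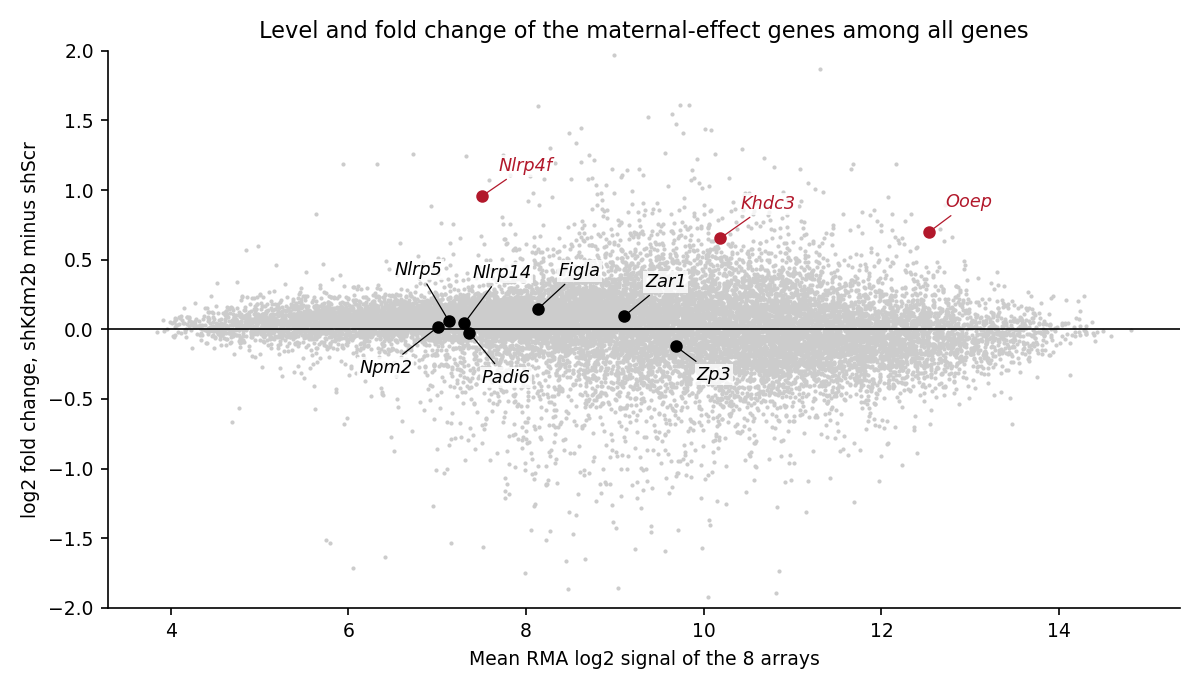
Log2 fold change, shKdm2b minus shScr (vertical axis), against the mean RMA log2 signal of the 8 arrays (horizontal axis) for all genes in grey, with the 10 maternal-effect genes as large dots, red where they met the gene rule. The vertical axis ends at 2 in either direction, and 20 genes lie beyond it. Nlrp4f, Khdc3 and Ooep stand apart from the other members over dim, middle and bright signals.

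Oocyte genes outside the set were counted in the same way. Of 26 measured genes on a list of other oocyte and maternal-effect genes, 1 rose, none fell and 25 did not pass, with a median log2 fold change of 0.06. At an unadjusted p under 0.05 (limma), 4 of the 26 were higher and 2 lower, against 16.8% and 13.6% of all genes. The riser was Tcl1, a maternal-effect gene that is also expressed in ESCs and whose product binds AKT kinases. Its log2 signal was 12.91, 12.69, 12.59 and 12.82 in shKdm2b replicates 1 to 4, and 11.87, 11.74, 11.24 and 11.43 in shScr replicates 1 to 4. The groups lay far apart, and Tcl1 rose 2.28-fold, or by 1.19 on the log2 scale (SE 0.14, adjusted p = 0.0035, limma), though it was at adjusted p = 0.0748 (limma) when only passages 28 to 30 were compared. Dppa3, which encodes the maternal-effect protein STELLA, had log2 fold changes of -0.51 and -0.63 in its 2 probe sets (adjusted p = 0.0742 and 0.0791, limma) and did not meet the rule. It met the rule as lower without shKdm2b replicate 1, with array weights and with 1 probe set per gene. Over all 58 measured oocyte and maternal genes outside the set, 2 rose in the main fit, Tle6 and Tcl1, and none fell in it, beside the 1.42% of all genes that rose. At an unadjusted p under 0.05 (limma), 15 of the 58 were higher and 2 lower.

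Markers of other cell types were read beside these genes. Means over 8 measured granulosa and ovarian somatic markers were 8.21 to 8.29 on shKdm2b arrays and 7.99 to 8.28 on shScr arrays. Of these markers, 1 rose, beside 1.42% of all genes. It was Cyp11a1, a gene of steroid synthesis, at 0.76 on the log2 scale (adjusted p = 0.0113, limma), and the inhibin gene Inha had 0.55 (adjusted p = 0.0017, limma), short of 1.5-fold. Inhba, the inhibin beta A gene, lay the other way at -0.85 (adjusted p = 0.188, limma), and the median of the list was 0.11. None of 7 spermatogonia and spermatid markers met the rule (limma), and an unadjusted p under 0.05 was seen for 1 with higher and 1 with lower signal (16.8% and 13.6% of all genes). Of 7 fibroblast markers, Thy1 rose by 0.72 (adjusted p = 0.000475, limma), beside 1.42% of all genes that rose. Dcn had a log2 fold change of -0.35 (adjusted p = 0.0533, limma), and 4 of the 7 were below 0. The list means were 7.99 to 8.24 on shKdm2b arrays and 7.95 to 8.33 on shScr arrays.

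The genes on either side of the risen members did not meet the rule. Beside Nlrp4f, the olfactory receptor gene Olfr466 had a log2 fold change of 0.15 (adjusted p = 0.379, limma) and the zinc finger gene Zfp369 had -0.31 (adjusted p = 0.134, limma). Beside Ooep lie Dppa5a, described above, and the helicase gene Ddx43 at 0.08 (adjusted p = 0.700, limma). Beside Khdc3, the Rab GTPase gene Rab27a had 0.04 (adjusted p = 0.844, limma) and Rsl24d1, a gene of ribosome assembly, had -0.32 (adjusted p = 0.0824, limma).

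The 4 risen genes of the complex did not vary alike among arrays of the same group. Replicate 1 was the lowest shKdm2b array and the lowest shScr array for Nlrp4f and Khdc3, but the highest of both groups for Ooep and Tle6. Replicate 1 of shKdm2b was of passage 27 and that of shScr of passage 28. As a description over 8 arrays, deviations from the group means correlated at 0.78 between Nlrp4f and Khdc3 and at 0.71 between Ooep and Tle6, and at -0.41 to -0.71 across these pairs. The part of passage in this pattern was not tested.

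**Figure D4:**
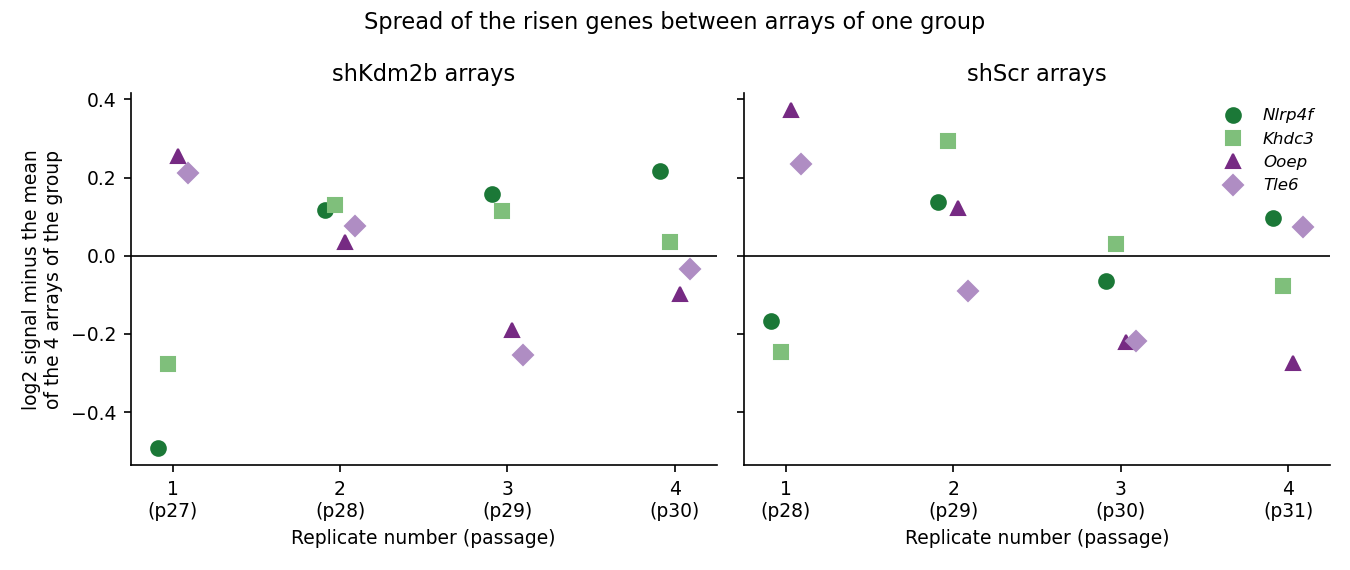
Log2 signal of Nlrp4f, Khdc3, Ooep and Tle6 on each array minus the mean of the 4 arrays of its group (vertical axis), by replicate number with the passage in brackets (horizontal axis), for shKdm2b on the left and shScr on the right. In replicate 1 of both groups Ooep and Tle6 lie above the group mean and Nlrp4f and Khdc3 below it.

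The 3 genes whose signal over the 8 arrays was most like that of Nlrp4f were Ccdc38, Usp9x and Pnma5 (Pearson's r of 0.985, 0.984 and 0.984). For Ooep these were Nfkbia, Pxmp4 and Marchf2 (0.993, 0.988 and 0.984), and for Khdc3 they were Lifr, Rps4x and Sobp (0.991, 0.986 and 0.981). The 8 points share the difference between shKdm2b and shScr, and the values only describe likeness.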

How the data were processed

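The authors normalised the probe intensities with RMA (oligo 1.18.1, per the labels) and deposited 1 log2 value per probe set and array. The annotation build of the array is not given in the sources used here. Probe sets were named through GEO's platform annotation, with symbols updated through the RefSeq table for GRCm38.p6, in which 19856 of the 19938 genes were found by gene ID. Of 35556 probe sets, 21789 name 1 gene, 1621 several and 12146 none here. Levels of different probe sets depend on their probes. The percentiles therefore place a probe set only in the dim or bright range, and amounts of RNA were not compared between genes.

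All probe sets entered 1 model of limma 3.58.1 in R 4.3.3 (lmFit and eBayes), with p-values adjusted over the whole table by Benjamini-Hochberg, followed by the gene rule of the study's methods. The pipeline was tested on simulated data. Exact permutation tests were made on single values. Deviations of same-numbered arrays correlated at 0.239, 0.118, 0.355 and 0.222, each over 0.1, and those of different numbers at -0.231 to 0.0747. Together with the collection in parallel that the labels state, this was taken to pair the arrays. The main fit, which is reported, the fits without 1 array and the permutation tests nonetheless treated the arrays as unpaired. The permutation p-values hold only for unpaired arrays. With the replicate block, adjusted p was 0.00901 for Nlrp4f, 0.00784 for Ooep and 0.00845 for Khdc3 (limma). Alternatives were the block, passages 28 to 30 alone, leaving out each array, a trend with robust spread, array weights, median centring, a filter on dim probe sets, 1 probe set per gene, no fold threshold and an adjusted p under 0.01. Matching passages 28 to 30 joins shKdm2b replicates 2 to 4 with shScr replicates 1 to 3. Deviations of these joined arrays correlated at -0.0454, -0.0899 and -0.0977, so that this comparison sets the pairing by number aside.

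The members and lists were chosen with earlier results of these data known. Named genes were the members, Kdm2b, from each list the called genes (at most 4) or the 1 or 2 with the smallest p, neighbours of called members, and the 3 genes most like each called member. Zbed3, Nlrp2, Nlrp4e, Dppa3, Inha, Inhba and Dcn fall outside that rule and were named after their values were seen. Proteins were not compared.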

Additional observations from a re-analysis of the deposited data

Results flagged for a closer look

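Of the 22 groups of 4 arrays tested for a stray array (11 probe sets in each group), 2 held a sample far from the others by Dixon's criterion (gap to the nearest array over the group's range, against the 95% critical value for 4 samples). Chance alone flags about 1 in 20 groups. In Nlrp4f, shKdm2b replicate 1 had a log2 signal of 7.487, with the nearest shKdm2b array at 8.096 (ratio 0.856). In Nlrp14, shKdm2b replicate 1 had 7.183, with the nearest at 7.361 (ratio 0.874). Both values belong to the same array, at passage 27, a passage that no shScr array shares. Without this array the log2 fold change of Nlrp4f was 1.12 and that of Nlrp14 was 0.09, and neither call changed.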

How the results depend on the processing

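Of the 10 genes, 3 were called higher with all 8 arrays, and 1 to 3 when 1 array was left out. The count was 1 without shKdm2b replicate 2, shKdm2b replicate 4, shScr replicate 3 or shScr replicate 4. It was also 1 with passages 28 to 30 alone and passage as a block, and 0 at an adjusted p under 0.01. The passage fit has fewer arrays and joins arrays of different replicate numbers. With the replicate block it stayed at 3, and no call on a member changed. No member was called lower in any of these fits. The filter on dim probe sets left 4 of the 10 members, of which 2 were called. The sign of small fold changes was not stable. Leaving out 1 array gave log2 fold changes from -0.0172 (without shScr replicate 1) to 0.0927 for Nlrp14, from -0.00919 (without shScr replicate 1) to 0.0567 for Npm2, from -0.0597 to 0.0148 (without shScr replicate 2) for Padi6 and from -0.332 to 0.050 (without shKdm2b replicate 1) for Zp3. With median centring Nlrp14 was at -0.0122 and Npm2 at -0.0358, and with passages 28 to 30 Zp3 was at 0.0130. The cause was not tested. The number of arrays limits the precision.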

Other observations

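Some genes of the lists or beside the members were not described above, and they were picked after their values were seen. Nlrp4c, of the same family as Nlrp4f, had log2 signals of 6.70, 7.27, 7.61 and 8.12 in shKdm2b replicates 1 to 4, and 6.61, 6.54, 6.76 and 6.74 in shScr replicates 1 to 4. It did not meet the gene rule with all arrays (log2 fold change 0.77, SE 0.26, adjusted p = 0.104, limma), and met it without shKdm2b replicate 1 (adjusted p = 0.0238, limma). Fgf17, a growth factor gene, is the nearest measured protein-coding gene on 1 side of Npm2. It was the only 1 of 20 such neighbouring genes to meet the rule, beside 1.43% of all genes that were lower. Its log2 fold change was -0.61 (SE 0.11, adjusted p = 0.0155, limma). Obox6, an oocyte homeobox gene, was read differently by its 2 probe sets, with log2 fold changes of 0.14 and 0.62 (adjusted p = 0.409 and 0.116, limma).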
